A study of Mus musculus with 20 samples.

Results

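6 Treg libraries were compared, 3 from unstimulated cells and 3 from cells given IL-2-REH for 90 min, out of 20 libraries in the series (15 from Tregs in 5 groups, 5 from CD8+ T cells). They were taken by their labels, which number the libraries of each group from 1 to 3, and same numbers were read as pairs. Tregs, the CD4+ lymphocytes marked by Foxp3, came from the spleen and lymph nodes of B6-Foxp3EGFP mice, in which GFP is made with Foxp3, and were isolated by a magnetic CD4+ T cell kit followed by sorting for GFP. The labels give C57BL/6N as strain and neither age nor the number of mice behind a library, and the study's list of resources gives these mice as female. The labels and the study do not say whether the libraries of a group came from separate animals. Sex-linked genes, given below, set replicate 2 apart from replicates 1 and 3. The p-values measure the spread between libraries, whatever its source. IL-2-REH is IL-2 with substitutions where it touches the common gamma chain of its receptor, a partial agonist, and was given at 200 nM. IL-2 at 200 nM for 90 min and IL-2-REH for 4 hr, with 3 libraries each, serve below as comparisons. The unstimulated libraries carry the time 0h, so that the cytokine and 90 min in culture cannot be told apart.

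IL-2 is held by a receptor of an alpha chain (Il2ra), a beta chain (Il2rb) and the common gamma chain (Il2rg). The beta and gamma chains bring together the kinases Jak1 and Jak3, which phosphorylate the transcription factors Stat5a and Stat5b, and these enter the nucleus and bind DNA as dimers. Tregs make little IL-2 of their own, carry much alpha chain and depend on the cytokine for survival and for stable Foxp3 expression.

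With IL-2-REH for 90 min, 14 of 15009 genes tested changed at an adjusted p under 0.05 (0.0933%, edgeR's quasi-likelihood test), and all 14 were higher. They were the STAT5 target and inhibitor Cish, the Foxp3 partner Ikzf4, the Myc antagonist Mxd1, Lama5, Sema7a, Myo6, Tiam1, Gpsm2, Rcan3, Rnf19b, Usp27x, Mov10, Aldh18a1 and Tctn3. No gene was lower by this test, which gave 1704 genes (11.4%) in either direction at an unadjusted p under 0.05. With the replicate number as a block, which the pairing of libraries calls for, 29 genes were higher (0.193%) and 3 lower (0.02%), 0.213% in all, and all 14 were among them. DESeq2 called 81 higher (0.54%) and 32 lower (0.213%), 0.753% in all. These counts depended on the library labelled unstimulated replicate 1. Without it, the same edgeR test called 1077 genes higher (6.95%) and 797 lower (5.14%), 12.1% in all, again with all 14 among them.

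STAT5 dimers bind TTCNNNGAA, where N is any base, and this letter pattern was looked for in the RefSeq windows from 250 bases before to 50 bases after each annotated start (GRCm38.p6). The pattern reads the same on both strands. Of the 14 genes, 13 had a window (15 windows in all), and 3 genes had the pattern, Cish, Aldh18a1 and Usp27x. It was in 20% of their 15 windows and in 7.02% of the 13848 windows of tested genes. At least 2 copies were in 2 of the 15 windows, those of Cish and Aldh18a1, and in 0.433% of the windows of tested genes. The stretches are printed below 5′ to 3′ on the strand of the gene, with the pattern in capitals. They are shown because Cish is the textbook STAT5 target among the genes that rose and carries 2 copies side by side. In Cish they start at the annotated start itself (chr9:107296654-107296683, plus strand). In Aldh18a1 they lie 154 and 39 bases before the start (chr19:40588599-40588627 and chr19:40588484-40588512, minus strand), and in Usp27x 192 bases before it (chrX:7376004-7376032, minus strand).
Cish: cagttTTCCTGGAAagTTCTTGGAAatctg
Aldh18a1, far copy: ttccttacctTTCTGGGAAgctgtctggg
Aldh18a1, near copy: gtgggcgcgaTTCTCAGAAgcgcctgcgc
Usp27x: tgccgcctccTTCAGTGAAagtccctttt
A pattern with 1 more base of any kind between the same ends was in none of the 15 windows and in 5.51% of those of tested genes. With only 15 windows such a share often gives none, so this count does not set the patterns apart. The shares of the 15 windows were not tested against those of tested genes. A match is a match of letters, and binding was not measured here.

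The library labelled unstimulated replicate 1 stood apart from the other unstimulated libraries. Over tested genes its log2 CPM (reads scaled to library size) correlated with those of unstimulated replicates 2 and 3 at 0.926 and 0.928, and with IL-2-REH replicate 1 at 0.985, while unstimulated replicates 2 and 3 correlated with each other at 0.985 (across genes, which are not independent replicates). Of the 1874 genes called without it, it lay nearer to the IL-2-REH mean than to the other unstimulated libraries in 1800 (96.1%). On a scale on which 0 is the level of the other unstimulated libraries and 1 that of IL-2-REH, its median over these genes was 1.05. For the 14 genes it lay between -0.59 and 0.41, nearer to the other unstimulated libraries in all 14. These genes were called with this library in the fit, which selects genes in which it lay with the other unstimulated libraries. Where a call differs without this library, this is said below, and for some of the genes the fold changes or adjusted p of both fits are given.

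The 6 libraries held 39933483 to 52503925 reads on genes, and the markers of Tregs were read in all of them. Foxp3 was at 67.0, 92.8 and 65.2 RPKM (reads scaled by transcript length and by mapped reads) in unstimulated replicates 1, 2 and 3 and at 150.4, 100.3 and 90.5 with IL-2-REH. Il2ra was at 62.7, 117 and 91.5 RPKM and then at 120.5, 113 and 104, and Cd8a stayed at or under 0.626 RPKM. RNA of other cells was also read. The summed RPKM of 11 macrophage and monocyte markers was 18.1, 104 and 73.6 in unstimulated libraries and 15.6, 52.7 and 36.2 with IL-2-REH. In normalised log2 CPM their median changes were -1.15, -0.92 and -1.41 in pairs 1, 2 and 3. Of the 11 genes, 10 were below in all 3 pairs (19.6% of all tested genes). Neutrophil markers summed to 215 and 203 RPKM in the replicate 3 libraries, against 1.18 to 5.63 in the others. Erythroid markers summed to 330.1 and 218 RPKM in the replicate 3 libraries and to 13.6 to 29.98 in the others, with a median log2 change of 1.11 in pair 1, -0.58 in pair 2 and -0.29 in pair 3. Xist was at 65.2 and 51.3 RPKM in the replicate 2 libraries and at most at 0.0440 in the others. The Y-linked gene Ddx3y was at 27.3 to 58.7 RPKM in replicates 1 and 3 and near 0 in replicate 2. These values do not match mice that were all female. By these genes replicate 2 came from other mice than replicates 1 and 3, so that sex goes with the replicate number.

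**Figure D1:**
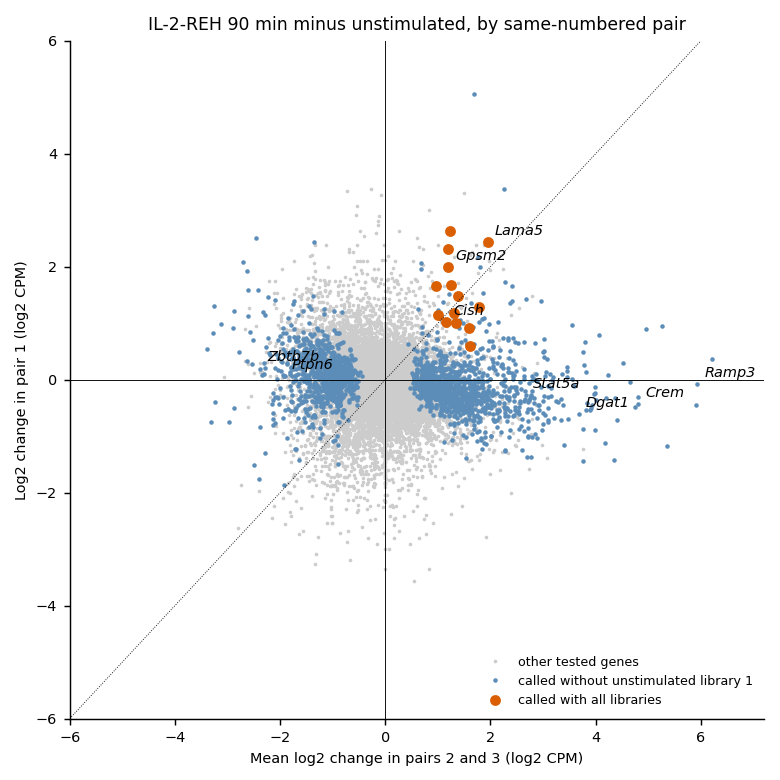
Log2 change with IL-2-REH for 90 min in pair 1 (vertical axis) against the mean of pairs 2 and 3 (horizontal axis), in normalised log2 CPM, for 15009 tested genes. Orange points are the 14 genes called with all libraries, blue points the other genes called without unstimulated replicate 1, and the dotted line marks equal change. The blue genes lie far from 0 on the horizontal axis and around 0 on the vertical one, whereas the orange genes are above 0 on both. Calling the blue genes without unstimulated replicate 1 favours their distance from 0 on the horizontal axis.

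The genes of cytokine signalling came first among the 14 by their role. Cish (NM_009895, chromosome 9, 107296659 to 107302784), which encodes an SH2 protein that dampens IL-2 receptor signalling, was at 54.7, 65.5 and 54.0 RPKM in unstimulated replicates 1, 2 and 3 and at 128, 117 and 97.0 with IL-2-REH. All 3 treated libraries were above all 3 unstimulated ones, and unstimulated replicate 1 was level with the others. The log2 fold change was 1.104 (standard error 0.18, adjusted p = 0.0345, edgeR), and 1.15 without unstimulated replicate 1 (adjusted p = 0.00360). With IL-2 for 90 min, Cish was at 238, 262 and 187 RPKM, above every IL-2-REH library.

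Ikzf4 (NM_011772, chromosome 10, 128630839 to 128669671) encodes Eos, a zinc finger protein of the Ikaros family that works with Foxp3 as a repressor. It was at 21.9, 23.1 and 19.991 RPKM in unstimulated cells and at 50.7, 44.0 and 43.6 with IL-2-REH. The groups did not overlap, and the spread within each was small. The log2 fold change was 1.22 (standard error 0.17, adjusted p = 0.0223, edgeR) and 1.32 without unstimulated replicate 1. The annotated genes Gm26876 and Gm51824 overlap it, and since the use of the strand in counting is not given in the sources used here, their reads cannot be told apart from its own.

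Mxd1 (NM_010751, chromosome 6, 86647044 to 86669234) encodes a partner of Max that competes with Myc. Its RPKM was 26.2, 23.8 and 27.4 in unstimulated cells and 57.2, 66.6 and 57.4 with IL-2-REH. The treated libraries were close together and far above the unstimulated ones. Its log2 fold change was 1.36 (standard error 0.20, adjusted p = 0.0246, edgeR). Myc itself was at 15.2, 35.9 and 27.1 RPKM and then at 28.5, 54.7 and 38.4. It was above in each pair while the groups overlapped, and its change did not pass (log2 fold change 0.84, adjusted p = 0.501, edgeR; 0.152 with the block).

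Among genes of the cell surface and matrix, Lama5 (NM_001081171, chromosome 2, 180176373 to 180225904), the alpha 5 chain of laminin, had the largest log2 fold change of the 14. It was at 0.240, 0.475 and 0.322 RPKM (170, 395 and 223 reads) in unstimulated cells and at 1.51, 1.02 and 1.47 (1066, 874 and 1136 reads) with IL-2-REH. It was thus a low transcript in both groups, and every treated library was above every unstimulated one. The log2 fold change was 2.12 (standard error 0.35, adjusted p = 0.0367, edgeR), and 1.98 without unstimulated replicate 1.

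Sema7a (NM_011352, chromosome 9, 57939596 to 57962865), a semaphorin anchored to the membrane by a lipid, was at 0.752, 0.841 and 0.799 RPKM in unstimulated cells and at 2.13, 2.62 and 2.02 with IL-2-REH. The unstimulated libraries differed from each other by little, with a mean of 0.797 ± 0.0448 against 2.26 ± 0.318 RPKM (SD, n = 3 libraries each). Its log2 fold change was 1.64 (standard error 0.21, adjusted p = 0.0223, edgeR). It was the 1 gene called among 23 semaphorins and plexins tested, against 0.0933% of all genes. This list was chosen with earlier results of these data known, so the count is not a result about the family.

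For the actin cytoskeleton and cell polarity, Myo6, a myosin that walks towards the minus end of actin, was at 0.642, 1.56 and 1.19 RPKM in unstimulated cells and at 4.63, 2.29 and 2.93 with IL-2-REH. IL-2-REH replicate 1 was the highest and unstimulated replicate 1 the lowest library, so that pair 1 gave a log2 change of 2.64 against 0.91 and 1.56 in pairs 2 and 3. Over all pairs its log2 fold change was 1.69 (standard error 0.25, adjusted p = 0.0251, edgeR). Myo6 was the 1 gene called among 20 unconventional myosins tested, a list also chosen with earlier results known, against 0.0933% of all genes.

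Tiam1, an exchange factor for the small GTPase Rac, was at 15.4, 24.6 and 19.969 RPKM and then at 39.5, 35.4 and 36.4. Here the treated libraries were close together and all above the unstimulated ones (log2 fold change 1.05, standard error 0.16, adjusted p = 0.0285, edgeR). Gpsm2, which binds G protein alpha subunits and orients the mitotic spindle, was at 1.34, 1.95 and 1.42 RPKM (291, 496 and 301 reads) and then at 6.22, 3.34 and 2.84 (1344, 878 and 672 reads). It did not overlap between groups either (log2 fold change 1.51, standard error 0.21, adjusted p = 0.0223, edgeR), and the gene Clcc1 overlaps it on chromosome 3.

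The genes of ubiquitin and calcium signalling were Rnf19b, Usp27x and Rcan3. Rnf19b, a ubiquitin ligase, was at 31.2, 25.9 and 27.7 RPKM in unstimulated cells and at 81.4, 50.2 and 56.9 with IL-2-REH. Usp27x, a deubiquitinase encoded on the X chromosome, was at 0.775, 1.33 and 0.985 RPKM and then at 4.46, 1.89 and 2.38. Rcan3, of a family that regulates the phosphatase calcineurin, was at 14.9, 14.6 and 9.35 RPKM and then at 26.0, 29.1 and 28.4. In all 3 genes the groups did not overlap, although Usp27x varied much among treated libraries. Their log2 fold changes were 1.25, 1.62 and 1.24 (adjusted p = 0.0314, 0.0322 and 0.0338, edgeR).

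Of the remaining genes, Aldh18a1, the enzyme that begins the synthesis of proline from glutamate, was at 12.9, 21.1 and 16.8 RPKM in unstimulated cells and at 47.5, 33.3 and 39.5 with IL-2-REH. Mov10, an RNA helicase, was at 9.60, 16.3 and 11.3 RPKM and then at 35.1, 23.5 and 19.5. Tctn3, a protein of the base of the primary cilium, was at 1.56, 2.67 and 1.86 RPKM and then at 5.04, 4.80 and 4.63. Each was higher in all treated than in all unstimulated libraries, and unstimulated replicate 1 was the lowest of the 6 in all 3 genes. The log2 fold changes were 1.40, 1.20 and 1.41 (adjusted p = 0.0246, 0.0345 and 0.0314, edgeR).

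**Figure D2:**
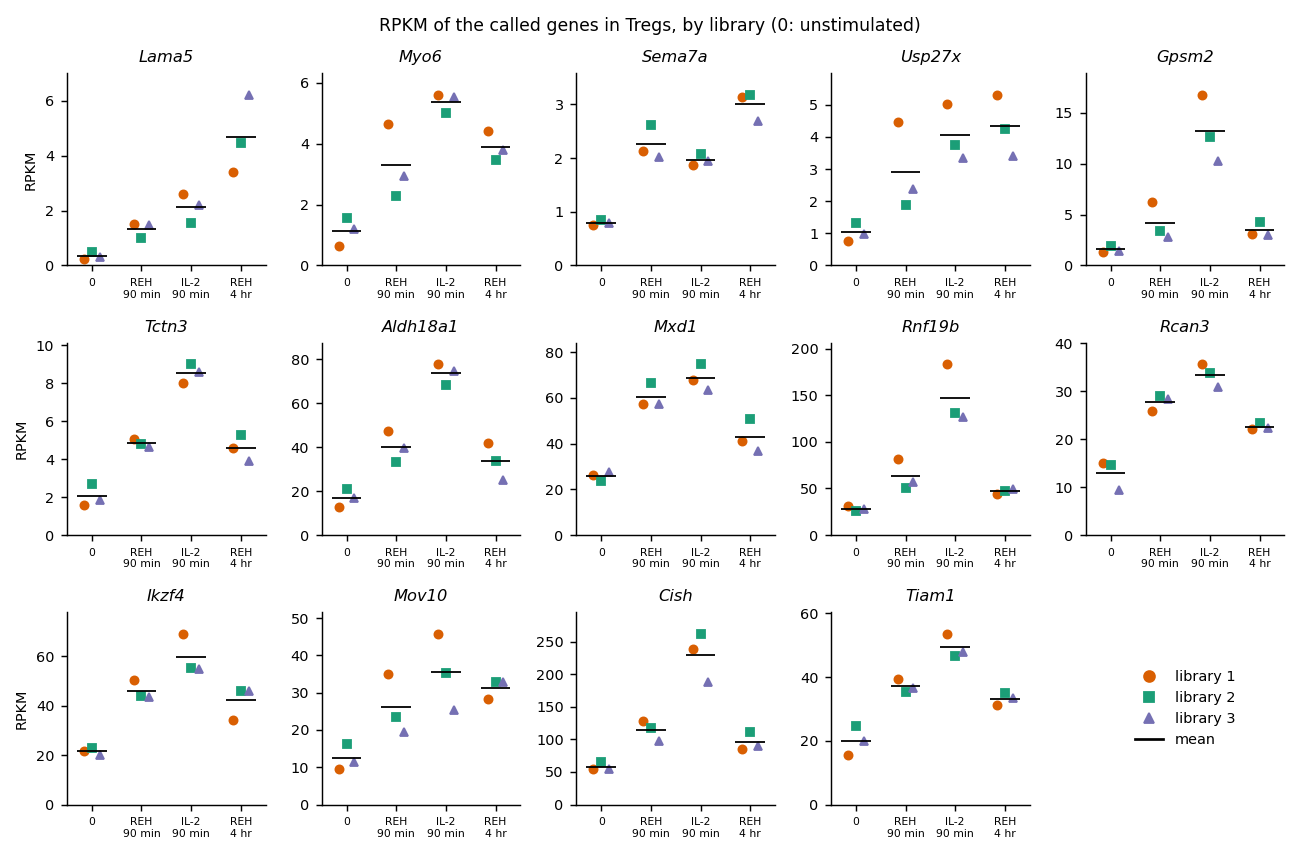
RPKM (vertical axes, each from 0) of the 14 genes called with all libraries, in unstimulated Tregs (0), IL-2-REH 90 min, IL-2 90 min and IL-2-REH 4 hr. Points are libraries 1 to 3 and lines group means. In every panel the 3 IL-2-REH 90 min libraries are above the 3 unstimulated ones, and in Cish, Gpsm2 and Rnf19b the IL-2 libraries are above those of IL-2-REH.

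The 14 log2 fold changes ran from 1.05 to 2.12 (median 1.38), and adjusted p from 0.0223 to 0.0367. All treated were above all unstimulated libraries in 14 of 14 genes, as in 5.98% of all tested genes. The selection of the 14 on the same libraries favours this. Without unstimulated replicate 2 or 3, or without IL-2-REH replicate 3, 0 of the 14 passed. Without IL-2-REH replicate 1 only Sema7a passed, and without IL-2-REH replicate 2 Sema7a, Aldh18a1, Gpsm2, Myo6 and Usp27x did. The direction was the same in each of these fits. Without unstimulated replicate 1, with the block, and with DESeq2, all 14 passed. With only the groups compared in the fit, 0 of the 14 passed. The 14 calls thus needed the other Treg groups in the fit. Leaving them out changed the estimate of the spread, the scaling and the genes tested (13689). Which of these removed the calls was not tested.

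With the replicate number as a block, 15 further genes were higher, with log2 fold changes in the fit without the block from 0.89 to 1.99 and adjusted p there from 0.0767 upwards. In 14 of these 15 all treated were above all unstimulated libraries in normalised CPM, as in 5.98% of all tested genes. The 15 were selected by a test on the same libraries, which favours such a separation. Metrnl, a secreted protein, was at 1.06, 0.766 and 0.653 RPKM in unstimulated cells and 5.6031, 2.23 and 1.72 with IL-2-REH. IL-2-REH replicate 1 was far above the other treated libraries, while the log2 changes of the pairs were 2.18, 1.89 and 1.63. With the block its log2 fold change was 1.92 (standard error 0.20, adjusted p = 0.00345, edgeR), against an adjusted p of 0.234 without the block.

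Genes of metabolism and transport were part of this group. Elovl6, which elongates fatty acids, was at 6.06, 4.30 and 3.08 RPKM in unstimulated cells and 14.952, 11.7 and 9.78 with IL-2-REH (log2 fold change with the block 1.59, adjusted p = 0.0133, edgeR). Atp1b1, the beta 1 subunit of the sodium pump, was at 9.10, 18.5 and 15.017 and then at 27.4, 28.9 and 28.9 RPKM (1.19, adjusted p = 0.0245, edgeR). Ppp1r3b, which targets protein phosphatase 1 to glycogen, was at 1.09, 1.31 and 1.24 and then at 2.51, 2.51 and 2.04 RPKM (1.08, adjusted p = 0.0399, edgeR). In these 3 genes no treated library was as low as an unstimulated one, and without unstimulated replicate 1 and without the block they passed too.

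Genes of the cell division apparatus in this group were Spdl1, which recruits dynein to kinetochores, and the mitotic kinase Nek6. Spdl1 was at 1.01, 1.62 and 1.35 RPKM and then at 3.37, 3.08 and 2.53, and Nek6 at 0.630, 0.428 and 0.343 and then at 1.45, 0.960 and 1.57. Both are low transcripts with groups that did not overlap (log2 fold changes with the block 1.33 and 1.64, adjusted p = 0.0153 and 0.0484, edgeR). Spdl1 and Ncf1 were the genes of this group with TTCNNNGAA in their window, 2 of the 11 with a window. They are printed here for that reason, 151 bases before the start of Spdl1 (chr11:34833774-34833802, minus strand) and 88 bases before that of Ncf1 (chr5:134229695-134229723, minus strand).
Spdl1: aagcagacacTTCTAAGAAaacgaagcag
Ncf1: agctcaaaaaTTCTCAGAAagtgaaagac

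Genes of the surface and of secreted proteins were Ecm1, an extracellular matrix protein, Amica1 (Jaml in the annotation), an adhesion molecule of lymphocytes, the sialomucin Podxl, and Gpld1, which cuts lipid anchors of membrane proteins. Ecm1 was at 41.3, 60.2 and 44.4 RPKM in unstimulated cells and 99.7, 104 and 118 with IL-2-REH (log2 fold change with the block 1.28, adjusted p = 0.0229, edgeR). Amica1 was at 0.367, 2.05 and 1.58 and then at 1.97, 3.33 and 3.84 RPKM (1.54, adjusted p = 0.0399, edgeR). In RPKM its groups overlapped, since IL-2-REH replicate 1 was below unstimulated replicate 2. Podxl, with the largest change of the 15, rested on few reads, 12, 14 and 18 in unstimulated cells and 61, 45 and 62 with IL-2-REH (1.99, adjusted p = 0.0365, edgeR).

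The other genes of this group were Gpld1, Nabp1, Abtb2, Ncf1, Zfp608 and 9130019O22Rik. Nabp1, a protein that binds single-stranded DNA, was at 31.4, 20.9 and 16.6 RPKM and then at 86.4, 57.4 and 45.9. It was higher in each pair, by 1.25, 1.82 and 1.73 on the log2 scale. Ncf1, a subunit of the phagocyte NADPH oxidase, was at 2.88, 6.50 and 5.21 and then at 5.38, 9.70 and 8.38 RPKM. Its groups overlapped in RPKM while each pair rose (log2 fold change with the block 0.85, adjusted p = 0.0488, edgeR), and without unstimulated replicate 1 and without the block Ncf1, Amica1 and Zfp608 did not pass (adjusted p = 0.390, 0.264 and 0.100, edgeR).

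The 3 genes that fell with the block were Slc40a1, the iron exporter ferroportin, the adhesion molecule Vcam1, and Apol8. Slc40a1 was at 0.252, 9.0034 and 3.84 RPKM in unstimulated replicates 1, 2 and 3 and at 0.0669, 1.28 and 0.623 with IL-2-REH (log2 fold change with the block -2.34, standard error 0.38, adjusted p = 0.0229, edgeR). Vcam1 was at 0.933, 10.7 and 6.77 and then at 0.304, 3.68 and 1.69 RPKM (-1.59, standard error 0.29, adjusted p = 0.0488, edgeR). Both were lower in each pair but overlapped between groups, and both are abundant in spleen macrophages. Vcam1 is 1 of the macrophage and monocyte markers whose sum, given above, fell in the same pairs, C1qb among them at 0.909, 9.99 and 5.42 and then at 0.396, 3.83 and 1.64 RPKM. The part of these cells in the result was not tested, and fewer cells of a type and less RNA per cell cannot be told apart in such bulk libraries. Apol8 was at 0.429, 0.477 and 1.53 and then at 0.123, 0.116 and 0.248 RPKM (49, 64 and 171 reads against 14, 16 and 31), with groups that did not overlap (log2 fold change with the block -2.03, adjusted p = 0.0387, edgeR). Without unstimulated replicate 1 and without the block, the adjusted p of Slc40a1, Vcam1 and Apol8 was 0.168, 0.323 and 0.0470 (edgeR).

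**Figure D3:**
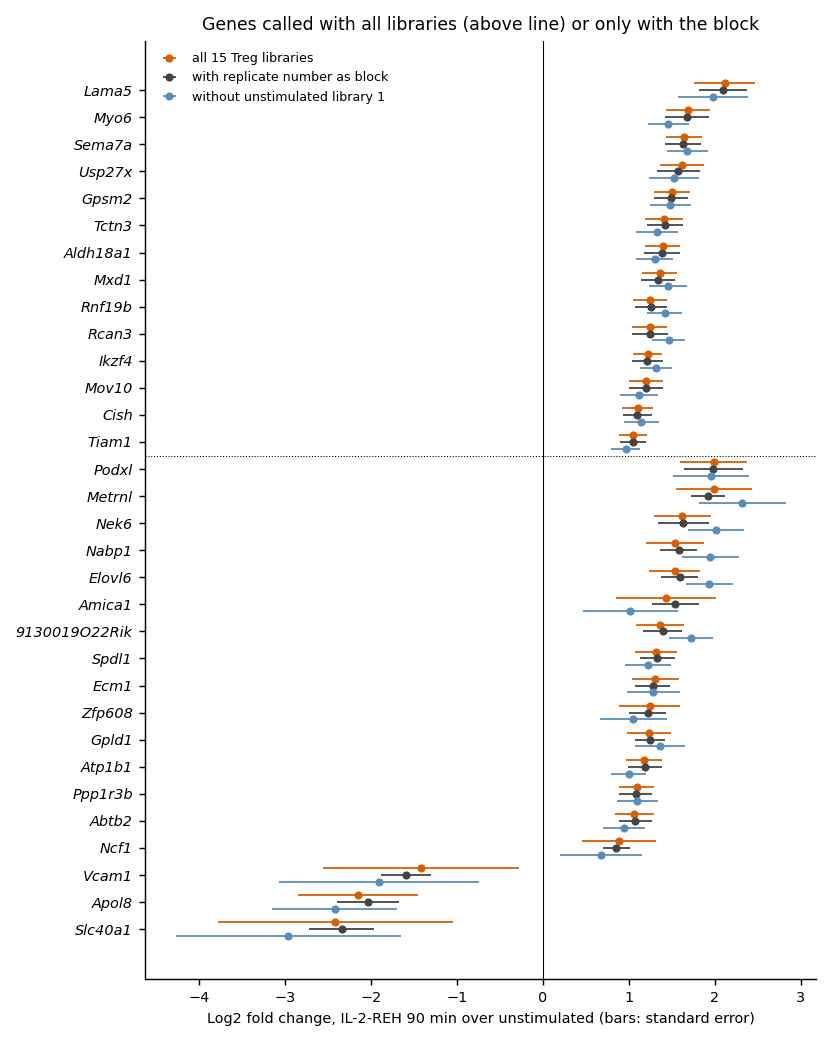
Log2 fold change of IL-2-REH 90 min over unstimulated Tregs (horizontal axis, bars are standard errors) for the 14 genes called with all libraries (above the dotted line) and the 18 called only with the replicate number as a block. Colours give the fit with all 15 Treg libraries, with the block, and without unstimulated replicate 1. Every gene keeps its direction in the 3 fits.

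For the genes that passed only without unstimulated replicate 1, that library was mostly nearer to the treated cells. Crem, a transcription factor of the cyclic AMP response, was at 229, 7.01 and 7.34 RPKM in unstimulated replicates 1, 2 and 3 and at 196, 171 and 154 with IL-2-REH. Ramp3, which modifies the calcitonin-like receptors, was at 219, 2.91 and 2.25 and then at 239, 141 and 115 RPKM. Stat5a was at 145, 29.8 and 24.2 and then at 139, 135 and 143 RPKM. In each gene unstimulated replicate 1 was level with the treated libraries or above them, and the other unstimulated libraries were far below.

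The same 3 genes had log2 fold changes of 1.08, 1.09 and 1.11 with all libraries (adjusted p = 0.668, 0.735 and 0.447, edgeR), and of 4.80, 6.19 and 2.60 without unstimulated replicate 1 (adjusted p = 1.6e-07, 6.6e-06 and 3.1e-05, edgeR). Gls2, a mitochondrial glutaminase, was at 5.42, 0.110 and 0.0397 RPKM (839, 20 and 6 reads) and then at 8.13, 4.91 and 4.76. Dgat1 and Ifngr1, like Zbtb7b and Ptpn6 below, were chosen after their values were seen. Dgat1, which makes triglycerides, was at 209.7, 11.6 and 9.95 and then at 159.15, 125 and 99.6 RPKM, and the interferon gamma receptor chain Ifngr1 at 499, 93.4 and 99.7 and then at 459.8, 379.6 and 389.9. All 3 passed without this library, with log2 fold changes of 6.49, 3.77 and 2.29 (adjusted p = 8e-06, 8e-06 and 2.4e-05, edgeR).

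The same held for genes that were lower. Zbtb7b, the transcription factor ThPOK of CD4+ T cells, was at 6.89, 50.043 and 38.5 RPKM in unstimulated replicates 1, 2 and 3 and at 9.12, 7.21 and 6.43 with IL-2-REH. Ptpn6, the phosphatase SHP-1, was at 8.83, 69.2 and 60.1 and then at 10.7, 14.0 and 13.6 RPKM. Unstimulated replicate 1 was level with or below the treated libraries in both. Without it, their log2 fold changes were -2.33 and -2.10 (adjusted p = 6.6e-06 and 7e-05, edgeR), against -1.87 and -1.63 with all libraries (adjusted p = 0.236 and 0.380). Of the 1077 genes called higher without this library, 361 were above in pair 1, against 6618 of all 15009 tested genes. Their median log2 change was -0.14 there against 1.38 in the mean of pairs 2 and 3. Of the 797 called lower, 304 were below in pair 1, with medians of 0.09 and -1.15. These calls had only unstimulated replicates 2 and 3 as the baseline, which favours large changes in pairs 2 and 3.

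Gene lists are given as counts of members that passed, with all libraries and then without unstimulated replicate 1. Of all genes tested, 0.0933% were higher with all libraries, and 6.95% were higher and 5.14% lower without that library. Counts near these shares are not a result about a list. Of 24 STAT5 and IL-2 target genes tested, 1 was higher with all libraries (Cish), and without that library 7 were higher and 1 lower, against 6.95% and 5.14% of all genes. The 7 were Cish, Pim1, Bcl6, Tnfrsf4, Tnfrsf9, Tnfrsf18 and Ccr8, and the lower gene was Ccnd3, a G1 cyclin. The tumour necrosis factor receptor Tnfrsf4 (OX40) was at 336, 123 and 81.1 RPKM and then at 458, 400.3 and 338, and Tnfrsf9 (4-1BB) at 271, 55.7 and 48.7 and then at 504, 164.91 and 164.01. Both were above in each pair although unstimulated replicate 1 was far above the other unstimulated libraries. Their log2 fold changes without it were 2.20 and 2.57 (adjusted p = 0.00106 and 0.00432, edgeR). Of the 24 genes, 12 were above in all 3 pairs (13.7% of all tested genes), and the list's median log2 fold change was 0.53 against -0.05 for all tested genes.

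The inhibitors Socs1 and Socs2, which like Cish act on cytokine receptors, differed between the pairs. Socs1 was at 10.3, 25.4 and 15.2 RPKM in unstimulated cells and at 61.0, 26.8 and 22.6 with IL-2-REH. Socs2 was at 6.51, 18.1 and 15.5 and then at 32.1, 19.6 and 19.0 RPKM. In both genes pair 1 showed the largest difference and pairs 2 and 3 smaller ones, and neither passed with or without unstimulated replicate 1 (adjusted p = 0.389 and 0.380 with it, edgeR). Bcl2, the survival factor, was at 11.1, 35.8 and 25.8 and then at 21.9, 32.6 and 25.2 RPKM, with overlapping groups and a log2 fold change of 0.34 (standard error 0.31) with all libraries and 0.03 (standard error 0.27) without unstimulated replicate 1. In pairs 2 and 3 its RPKM fell, while its normalised log2 CPM rose by 0.77, 0.23 and 0.22 in pairs 1, 2 and 3.

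Of the 23 genes of Treg identity and suppression, Ikzf4 was higher with all libraries. Without unstimulated replicate 1, 8 were higher and 1 lower (6.95% and 5.14% of all genes). Lrrc32 (GARP), which holds latent TGF-beta on the surface, was at 153, 83.4 and 61.8 RPKM and then at 264, 238 and 243. All treated libraries were above all unstimulated ones, with unstimulated replicate 1 the highest of the latter (log2 fold change 1.42, adjusted p = 0.216 with all libraries, and 2.01, adjusted p = 0.00018 without it, edgeR). Foxp3 and Il2ra, with the levels given above, did not pass in either fit (log2 fold changes 0.73 and 0.48 with standard errors 0.25 and 0.27).

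Of the 9 genes of the receptor, its kinases and STATs, 0 passed with all libraries. Stat3, Stat5a and Stat5b were higher without unstimulated replicate 1 (6.95% of all genes). Stat3 was at 151, 53.6 and 47.1 RPKM in unstimulated cells and 154, 150.4 and 162.39 with IL-2-REH, and Stat5b at 142, 54.9 and 43.9 and then at 138, 133 and 123. Both repeat the pattern of Stat5a, with unstimulated replicate 1 far above the other unstimulated libraries. Jak3 was at 20.7, 54.7 and 37.5 and then at 13.3, 27.7 and 16.9 RPKM, lower in each pair without passing in either fit (adjusted p = 0.418 and 0.0628, edgeR).

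Immediate early genes showed how far the pairs differed. Of 23 tested, 0 passed with all libraries, and 4 were higher and 1 lower without unstimulated replicate 1 (6.95% and 5.14% of all genes). The median log2 change of the list was -0.71 in pair 1, 1.15 in pair 2 and 0.01 in pair 3. Nr4a3, an orphan nuclear receptor, was at 222, 16.4 and 12.8 RPKM and then at 114, 542 and 427. It was lower in pair 1 and far higher in pairs 2 and 3. Fosl2, of the AP-1 family, was at 101, 3.93 and 9.81 and then at 95.2, 134 and 148 RPKM, with unstimulated replicate 1 level with its treated partner.

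Among 18 genes of quiescence and homing, 0 passed with all libraries. Without unstimulated replicate 1, 1 was higher (Ccr7) and 2 lower (Ddit4 and Dtx1), against 6.95% and 5.14% of all genes. Ccr7, the receptor that guides T cells to lymph nodes, was at 439, 77.8 and 101 RPKM and then at 415, 588 and 408. Ddit4, an inhibitor of mTORC1, was at 20.5, 69.0 and 41.5 and then at 25.5, 17.1 and 12.3 RPKM. Txnip, which binds thioredoxin and limits glucose uptake, was at 146, 309 and 309 and then at 73.7, 133 and 125 RPKM. It was lower by about the same factor in each pair, with groups that did not overlap, and still did not pass (log2 fold change -1.002, adjusted p = 0.403 with all libraries and 0.0683 without unstimulated replicate 1, edgeR).

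Lists of growth are given next, to be read against 6.95% of all genes higher and 5.14% lower without unstimulated replicate 1. Of 36 ribosome biogenesis genes, 0 passed with all libraries and 1, Rcl1, without unstimulated replicate 1, with list medians of 0.03 and 0.07 on the log2 scale. Nop56, a core protein of the nucleolus, was at 75.4, 57.5 and 67.4 RPKM and then at 89.5, 96.5 and 118, above in each pair without passing (adjusted p = 0.444, edgeR). Of 17 G1 cell cycle genes, 0 passed with all libraries, and 1 was higher and 3 lower without that library. The inhibitor Cdkn1a (p21) was at 20.3, 1.49 and 5.50 and then at 23.7, 23.0 and 32.5 RPKM, with unstimulated replicate 1 far above the other unstimulated libraries and just under the treated ones. Of 26 genes of nutrient uptake, glycolysis and amino acid metabolism, 0 passed with all libraries, and 5 were higher and 2 lower without it, with Odc1, which begins polyamine synthesis, at 548, 57.4 and 99.8 and then at 639, 306 and 349 RPKM.

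Of 14 genes of the thioredoxin and glutathione systems, 0 passed with all libraries, and 2 were higher and 1 lower without unstimulated replicate 1. In that fit 6.95% of all genes were higher and 5.14% lower, also for the lists that follow here. Of 23 cytokine and ligand genes, 0 passed with all libraries, and 2 were higher and 2 lower without it. In the list of Crem, phosphodiesterases and G protein regulators (19 tested), Gpsm2 was higher with all libraries, and 8 were higher and 4 lower without it. Of 15 laminins and laminin receptors, Lama5 was higher with all libraries, and without that library Lama5 and Lamc1 were higher and Lamb3 lower. Lamc1 was at 32.1, 10.987 and 7.98 RPKM and then at 29.4, 22.3 and 20.7. Of 11 interferon-stimulated genes, 0 passed with all libraries, and 2 were higher and 4 lower without it, with Ifit3 at 0.765, 5.72 and 5.06 and then at 1.08, 1.02 and 0.737 RPKM.

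Heat shock genes differed between the unstimulated libraries. Hspa1a, an inducible chaperone, was at 1.87, 18.4 and 400.2 RPKM in unstimulated replicates 1, 2 and 3 and at 4.28, 4.62 and 13.7 with IL-2-REH. Unstimulated replicate 3 was far above every other library, and Hspa1b gave the same order with 2.52, 26.3 and 487 RPKM. Of 9 such genes, 0 passed with all libraries and 3 were lower without unstimulated replicate 1 (5.14% of all genes). The part of these genes in the other results was not tested.

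Of 8 T cell markers, 0 passed in either fit, and 7 were below in all 3 pairs (19.6% of all tested genes). Their summed RPKM was 1006, 1560.4 and 1520.0 in unstimulated cells and 898, 985 and 961 with IL-2-REH. In normalised log2 CPM their median changes were -0.37, -0.28 and -0.38 in pairs 1, 2 and 3. Of the 10 B cell, 11 macrophage, 5 dendritic, 8 neutrophil, 10 erythroid and 8 CD8 T and NK cell markers tested, 0 passed with all libraries. With the block Vcam1 was lower, and without unstimulated replicate 1 the dendritic marker Zbtb46 was higher.

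**Figure D4:**
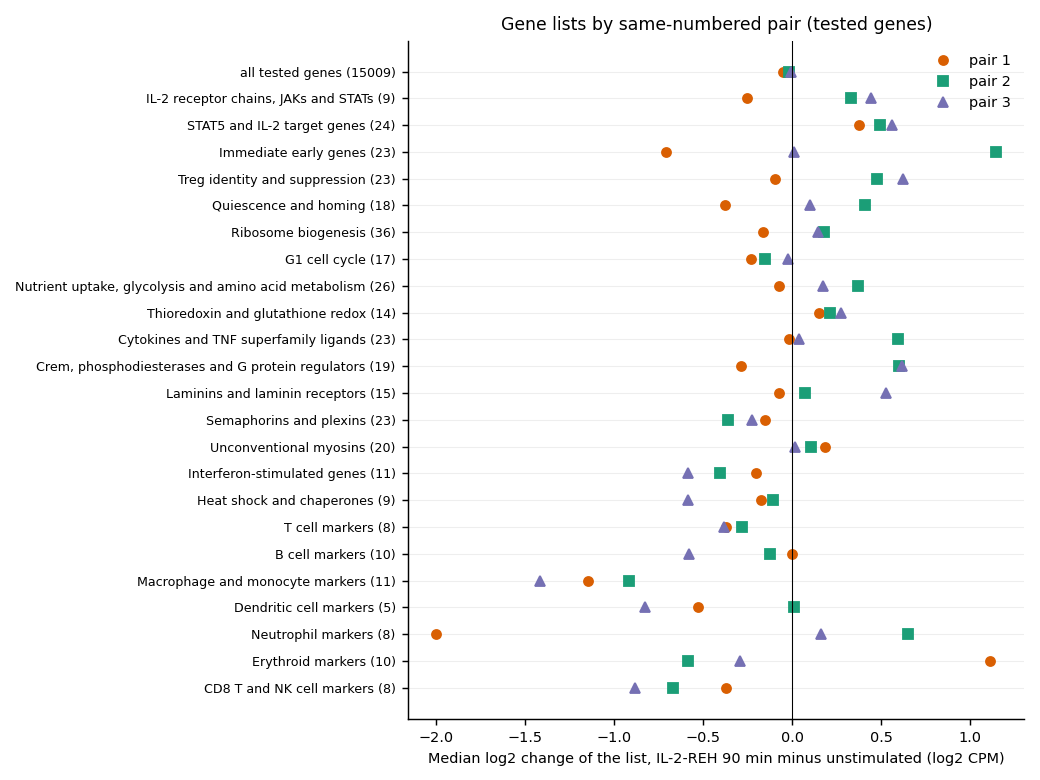
Median log2 change of each gene list with IL-2-REH for 90 min (horizontal axis, normalised log2 CPM) in pairs 1, 2 and 3, with the number of genes tested in parentheses. The STAT5 and IL-2 targets lie between 0.38 and 0.56 in all 3 pairs, whereas the immediate early genes lie at -0.71 in pair 1 and 1.15 in pair 2.

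IL-2-REH was then compared with IL-2 at the same dose and time, which does not use the unstimulated libraries as a baseline. They still enter the fit's estimate of the spread. Across 15009 genes, 2 were lower with IL-2-REH (0.0133%), Gpsm2 and Txnrd1, and 0 higher. The count at an unadjusted p under 0.05 was 149 (0.993%), and DESeq2 called 15, all lower. With the block the same number passed. Gpsm2 was at 16.8, 12.6 and 10.2 RPKM with IL-2, every library above those of IL-2-REH given before (log2 fold change -1.70, standard error 0.21, adjusted p = 0.00994, edgeR). Txnrd1, the cytosolic thioredoxin reductase, was at 12.5, 16.3 and 14.0 RPKM in unstimulated cells, 21.2, 18.0 and 17.5 with IL-2-REH and 45.7, 43.7 and 39.7 in the IL-2 libraries. It thus lay just above the unstimulated level with IL-2-REH, a difference that did not pass with all libraries (adjusted p = 0.363, edgeR) and passed without unstimulated replicate 1 (log2 fold change 0.54, adjusted p = 0.0438).

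Of the 14 genes, 13 were lower with IL-2-REH than with IL-2 in all 3 pairs (15.9% of all genes), and in 8 no IL-2-REH library reached an IL-2 library (3.14% of all genes). The log2 differences ran from -1.70 to 0.19 with a median of -0.58, against 0.02 for all genes. An unadjusted p under 0.05 was reached by 9 of them, and an adjusted one by Gpsm2 alone. Rnf19b was at 183, 131 and 127 RPKM with IL-2, above every IL-2-REH library (log2 difference -1.23, standard error 0.20, adjusted p = 0.113, edgeR), and it passed without unstimulated replicate 1 in the fit (adjusted p = 0.0348). Cish gave -1.02 (standard error 0.18, adjusted p = 0.165) and Aldh18a1, at 77.9, 68.5 and 74.5 RPKM with IL-2, -0.89 (standard error 0.20).

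Other members differed less between the cytokines. Mxd1 was at 67.6, 74.7 and 63.3 RPKM with IL-2, which overlapped with IL-2-REH (log2 difference -0.18, standard error 0.20). Rcan3 was at 35.7, 33.9 and 30.9 RPKM with IL-2, each library above those of IL-2-REH (-0.26, standard error 0.20). Sema7a, at 1.88, 2.08 and 1.94 RPKM with IL-2, was the member that was higher with IL-2-REH in all 3 pairs (0.19, standard error 0.20), by no more than its error. None of these 3 passed, which does not show that the cytokines act alike on them.

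Of the genes called with IL-2-REH only without unstimulated replicate 1, Crem and Ramp3 overlapped between the cytokines. Crem was at 200.0, 190.2 and 165.52 RPKM with IL-2, Ramp3 at 186, 100.2 and 71.5 and Stat5a, lower than in every IL-2-REH library, at 127, 113 and 114. Their log2 differences were -0.10, 0.48 and 0.24, with standard errors of 0.92, 1.12 and 0.53. These errors are from the fit of all 15 Treg libraries, so that the wide spread of the unstimulated libraries in these genes enters them. They do not give the spread of the IL-2-REH and IL-2 libraries alone. In the fit without that library, 5 genes were lower with IL-2-REH than with IL-2 (0.0323%), Gpsm2, Txnrd1, Rnf19b, Ezh2 and Adam19. Ezh2, which methylates histone H3, was at 8.02, 16.7 and 14.9 RPKM in unstimulated cells, 36.1, 19.6 and 21.3 with IL-2-REH and 85.7, 58.9 and 66.1 in the IL-2 libraries.

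After 4 hr of IL-2-REH, 0 genes differed from 90 min at an adjusted p under 0.05 (edgeR, with 2188, or 14.6%, at an unadjusted p under 0.05), 6 did with the block (0.04%, with 1 or 0.00666% higher and 5 or 0.0333% lower) and 251 with DESeq2. Of the 14 genes, 4 were above and 8 below their 90 min level in all 3 pairs (24.4% and 27.1% of all genes), with a median log2 difference of -0.28. The 14 were selected for high levels in the same 90 min libraries, which favours a fall from them. Lama5 went on from the levels at 90 min to 3.39, 4.47 and 6.23 RPKM, with every 4 hr library above every library at 90 min (log2 difference 1.69, standard error 0.35, adjusted p = 0.196, edgeR). Mxd1 was lower at 41.3, 50.6 and 36.9 RPKM, between the unstimulated and the 90 min libraries (-0.64, adjusted p = 0.248, edgeR). Cish was at 85.9, 112 and 90.1 RPKM, above all unstimulated libraries (-0.38, adjusted p = 0.349, edgeR). Of the genes called with the block, Ecm1 stood at 189.6, 215 and 292 RPKM, above its levels at 90 min in each library, and Abtb2 at 11.016, 15.1 and 13.0, about the unstimulated levels.

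**Figure D5:**
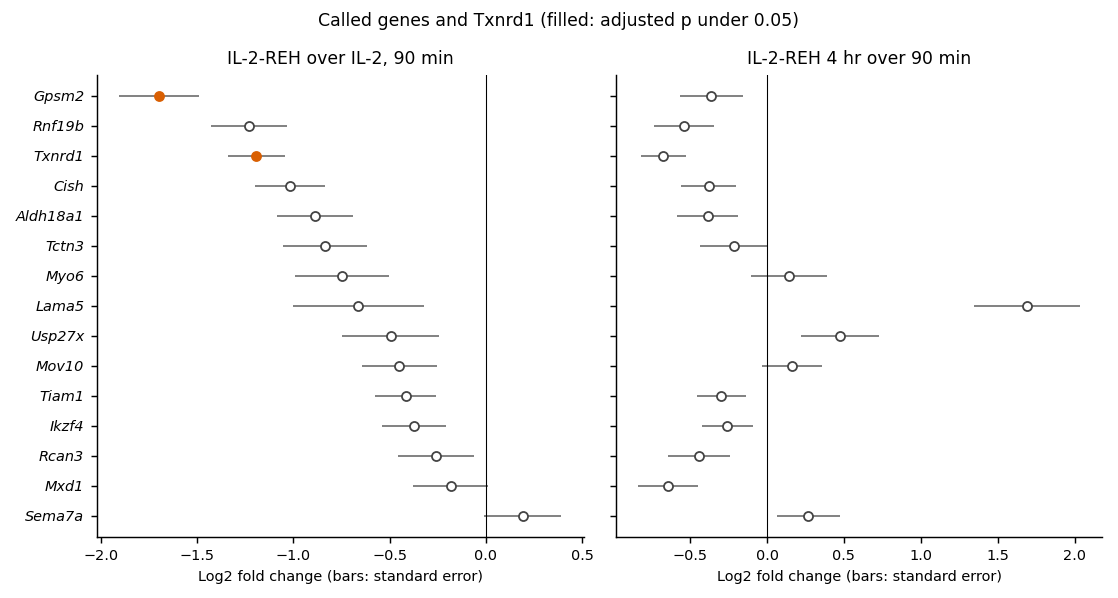
Log2 fold change (horizontal axes, bars are standard errors) of the 14 genes and Txnrd1 for IL-2-REH over IL-2 at 90 min (left) and for IL-2-REH at 4 hr over 90 min (right). Filled points have an adjusted p under 0.05 (edgeR). Sema7a is the gene to the right of 0 on the left side, and Lama5 is the farthest to the right on the other.

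The CD8+ T cell values have no replicate check, with 1 library in each group. Of the 14 genes, 10 reached a mean of 1 RPKM in CD8+ T cells, and with IL-2-REH for 90 min 6 were higher and 4 lower than in unstimulated cells on the scale of log2(RPKM + 1), on which 40.5% of all genes were higher and their median was -0.12. Ikzf4 was at 0.577 RPKM in unstimulated CD8+ T cells, 2.69 after IL-2-REH and 9.29 after IL-2. It was the 1 gene of the 10 above a log2 ratio of 1 (2.41% of all genes). Cish was at 1.87, 2.47 and 30.6 RPKM in the same order, so that IL-2-REH gave a level close to the unstimulated one and IL-2 a far higher one.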

How the data were processed

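The authors sequenced polyadenylated RNA as single-end reads, aligned them to mm10 (Bowtie2 2.2.6, TopHat2 2.1.1, SAMtools 0.1.8 and bedtools 2.25.0 are in the submitters' processing notes) and deposited, for each transcript and library, read counts and RPKM values. Whether counting used the strand is not given in the sources used here. For each gene symbol the transcript with most reads over all 20 libraries was kept (23992 symbols).

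Read counts were tested with the quasi-likelihood test of edgeR 4.0.16 (R 4.3.3, TMM scaling, filterByExpr, Benjamini-Hochberg adjustment, threshold 0.05) in 1 fit of all 15 Treg libraries with 1 mean per group. This fit ignores the pairing of libraries. Adjusted p and standard errors are from it unless another fit is named, also for the comparisons with IL-2 and with 4 hr. Levels are the deposited RPKM, which lack the TMM scaling of the tests. Ratios of RPKM thus differ from changes in normalised CPM by a factor shared by all genes of a pair. Columns of the authors' own comparisons were not used. Alternatives were DESeq2 1.42.0, other scalings, filters and transcripts, only the groups compared, the replicate number as a block, and each replicate left out. Same-numbered libraries deviated together from their group means (correlations of 0.55, 0.55 and 0.58 between unstimulated and IL-2-REH libraries), so that the numbers were taken to pair them. Named were all genes called with all libraries or with the block, list members that passed or had the 4 largest changes of a list, and genes the study names. Further genes, among them other list members, Txnrd1, Ezh2 and Xist, were chosen after their values were seen. The genes and lists were chosen with earlier results of these data known. Precision is limited by 3 libraries per group.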

Additional observations from a re-analysis of the deposited data

Results flagged for a closer look

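For 10 of the genes called higher in Tregs with IL-2-REH, the CD8+ T cell library with IL-2-REH for 90 min was below the unstimulated one. Of genes with a mean of at least 1 RPKM in CD8+ T cells, these were 4 of 10 called with all libraries. Of those called only with the block they were 6 of 10. Only 40.5% of all genes were higher in CD8+ T cells, so that such a fall was common. All 3 Treg pairs moved up in these genes, which their selection favours. With 1 CD8+ T cell library per group, the difference between the cell types was not tested. The log2 ratios of RPKM + 1 in CD8+ T cells were -1.90 for Amica1, -1.01 for Elovl6, -0.92 for Aldh18a1, -0.80 for Abtb2, -0.70 for Gpsm2 and -0.65 for Atp1b1. They were smaller for Ecm1 (-0.38), Myo6 (-0.23), Tctn3 (-0.17) and Nabp1 (-0.12), against a median of -0.12 over all genes.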

How the results depend on the processing

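No fold change given for IL-2-REH against unstimulated cells reversed its direction under an alternative. The 14 calls of IL-2-REH against unstimulated cells became 32 with the replicate number as a block, 113 with DESeq2, 8 at a mean RPKM of at least 5 and 0 with only the groups compared (1238 at an unadjusted p under 0.05, edgeR). Leaving out libraries gave 0 to 2269 calls, the higher counts only without unstimulated replicate 1, and the block without that library, added after seeing the data, gave 3933. Against IL-2, the 2 calls became 15 with DESeq2, 0 with only the groups compared (390 at an unadjusted p under 0.05), and 0 to 5 with libraries left out, with 2 under the block. Between 4 hr and 90 min, the 0 calls became 6 with the replicate block, 251 with DESeq2 and 0 to 574 with replicates left out. Which property of unstimulated replicate 1 moved these counts was not tested. The block changed no other call.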
